A study of Homo sapiens with 4 samples.

Results

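Chromosome 7 was examined as a unit in nucleosome maps of BE(2)C, an established line of human neuroblastoma cells in which MYCN is amplified. All nucleosomes called on chromosome 7 in 4 libraries were taken, 2650342 of the 45503697 nucleosomes in the lists. The chromosome was selected on its read level, which is the reads held by its nucleosomes in 100-kb bins divided by the median autosomal 100-kb bin of the same library. Comparisons of chromosome 7 with other autosomes are therefore given as descriptions without a test. The cells had been transfected with siRNA at 80 nM as the labels state it (a lower final concentration stands in the study's methods), with a lipid reagent. The 2 libraries labelled ctrl received a non-targeting siRNA and are called control here. The 2 libraries labelled N-myc kd received siRNA against MYCN and are called MYCN knockdown. Both groups share the cell line, a genotype given as wild type, the transfection and the MYCN amplification, so that neither group shows cells without the amplicon. The lists hold no RNA measurement, and the extent of the knockdown cannot be checked in them. The study's methods call the replicates biological, but nothing in the labels says whether they were separate cultures. The p-values measure only the spread between these libraries.

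MNase cuts the linker DNA between nucleosomes, so that the sequenced fragments mark the DNA wrapped on a histone octamer, and their midpoint marks the centre of the wrap, the dyad. With equal mapping and digestion, the number of such fragments from a region scales with the number of its DNA copies in the cells. Gain of whole chromosome 7 is a recurrent change in neuroblastoma. The chromosome carries EGFR, MET and BRAF, which encode kinases of growth factor signalling, CDK6, a kinase of the G1 phase, EZH2, the methyltransferase of Polycomb repressive complex 2, and the HOXA cluster.

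On chromosome 7 the lists held 633439 nucleosomes in control replicate 1, 686766 in control replicate 2, 641292 in MYCN knockdown replicate 1 and 688845 in MYCN knockdown replicate 2. Their summed reads were 9882651, 16127891, 9877329 and 15946138 in the same order. Replicate 2 of each group was thus deeper than replicate 1. Every nucleosome was 147 bp long and held at least 6 reads. Each nucleosome also has a fuzziness, the SD in bp of fragment midpoints around the dyad, so that a low value marks a sharply placed nucleosome.

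To show what a well-placed chromosome 7 nucleosome looks like, the sharpest were taken among those whose dyads lay within 2 bp in all 4 libraries and whose reads lay between the library's chromosome 7 median and 10 times it. There were 232 such nucleosomes, 0.0366% of those in control replicate 1. They were chosen by fuzziness, with at most 1 per Mb. The sequences below are 147 bases of the plus strand of GRCh37 (hg19), with the 11 bases around the dyad in capitals.
chr7:61974777-61974923: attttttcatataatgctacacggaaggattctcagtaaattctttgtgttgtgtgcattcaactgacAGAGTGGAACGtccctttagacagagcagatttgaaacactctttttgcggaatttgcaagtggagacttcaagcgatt
chr7:100638984-100639130: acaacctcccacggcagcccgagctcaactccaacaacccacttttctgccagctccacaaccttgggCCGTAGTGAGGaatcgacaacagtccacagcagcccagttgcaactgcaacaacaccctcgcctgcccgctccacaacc

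The first sequence lies outside annotated genes on 7q, close to the centromere gap. It lies in a 10-kb bin that held 6.25, 4.90, 6.45 and 5.00 times the chromosome 7 median of reads. Its own reads were 18, 62, 21 and 50 in that order, with a mean fuzziness of 11.7 bp and a GC content of 38.8%. The other lies in a coding exon of MUC12, a mucin gene, held 41, 45, 47 and 55 reads and had fuzziness values between 13.1 and 25.9 bp with 59.2% GC. A further sharp nucleosome, in an exon of UPK3B from 76145202 to 76145348, had a mean fuzziness of 18.1 bp. Repeated sequence accompanied some of them. The central 31 bases of the first and the MUC12 nucleosome occurred 3 times each on the autosomes of GRCh37, and those of the UPK3B nucleosome 1 time. Its part in the sharp calls was not tested.

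The read level of chromosome 7 was 1.208 and 1.198 in the controls and 1.205 and 1.201 upon MYCN knockdown, a mean of 1.203 ± 0.0043 (SD, n = 4). It ranked 7th of 22 autosomes by mean level. The autosomes nearest in level were chromosome 17 (1.204 ± 0.0209, SD, n = 4) and chromosome 14 (1.186 ± 0.0030, SD, n = 4), so that chromosomes 7 and 17 did not differ beyond their spread. The chromosomes above it included 22, 19, 20 and 16, whose GC contents were 47.99%, 48.4%, 44.1% and 44.8%, against 40.8% on chromosome 7. Read level rose with GC content within chromosome 7 as well. Its 242 bins under 36% GC had a level of 1.014 ± 0.0146 (SD, n = 4) and its 162 bins at 48% GC and over had 1.510 ± 0.0457 (SD, n = 4). When each bin was divided by a smooth curve of level against GC content fitted over autosomal bins in each library, the level of chromosome 7 became 1.240 and 1.241 in the controls and 1.245 and 1.247 upon MYCN knockdown. It then ranked 1st of 22 in each library. Chromosome 3 followed at 1.210 ± 0.0092 and chromosome 14 at 1.202 ± 0.0028 (SD, n = 4), both lower than chromosome 7 by more than these spreads. Chromosome 17 fell to rank 11, with 1.145 ± 0.0290 (SD, n = 4). A curve fitted within chromosomes, chosen after seeing the data, gave 1.251 ± 0.0103 for chromosome 7 and the same rank, but chromosome 20 followed at 1.243 ± 0.0088 (SD, n = 4), within the spread of chromosome 7. That spread holds the gap between replicates 1 and 2. Chromosome 7 was slightly higher in each library, with 1.239 and 1.253 in the controls and 1.248 and 1.264 upon MYCN knockdown. Chromosome 20 had 1.233 and 1.242 and then 1.243 and 1.255. Chromosome 17 was at rank 6 under that curve, with 1.205 ± 0.0378 (SD, n = 4). How many copies these levels stand for cannot be read from the lists, since the median autosomal bin of this line need not be present in a known number of copies.

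**Figure D1:**
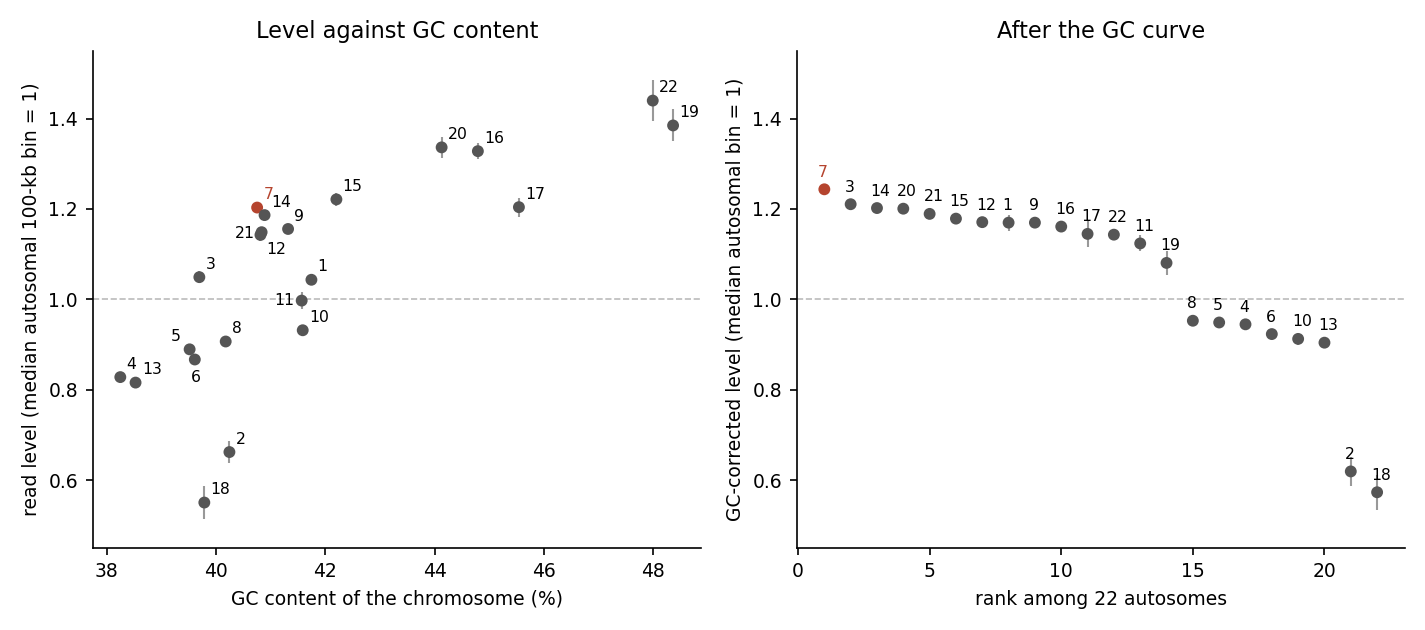
Read level of the 22 autosomes, with chromosome 7 in red, points for the mean and bars for the SD of 4 libraries. Left, level against GC content in percent, where GC-rich chromosomes 22, 19, 20 and 16 lie above chromosome 7 (1.203). Right, level after division by the GC curve against rank, where chromosome 7 is 1st with 1.243.

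The higher level was split between more nucleosomes and more reads per nucleosome. Chromosome 7 held 63614, 103810, 63580 and 102640 reads per Mb in the libraries in the order given above, and the pooled other autosomes held 52854, 86519, 52692 and 85291. The ratio was 1.203 ± 0.0027 (SD, n = 4). Called nucleosomes numbered 4265 ± 189 per Mb on chromosome 7 and 4033 ± 304 per Mb on the other autosomes (SD, n = 4), a ratio of 1.060 ± 0.0333. Mean reads per nucleosome were 19.4 ± 4.51 and 17.0 ± 3.47 (SD, n = 4), a ratio of 1.137 ± 0.0339. The split moved with depth. In the shallower replicates 1 the ratio of nucleosome number was 1.089 and 1.088 and that of reads per nucleosome 1.105 and 1.110. In the deeper replicates 2 they were 1.032 and 1.030 against 1.163 and 1.169. The nucleosomes covered between 59.9% and 65.2% of the resolved chromosome 7 sequence.

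Nucleosomes of chromosome 7 were slightly fuzzier and slightly closer together than those of the other autosomes. Mean fuzziness was 35.8 ± 0.896 bp against 35.4 ± 0.868 bp (SD, n = 4), a difference of 0.459 ± 0.0313 bp with the same sign in 4 of 4 libraries, and chromosome 7 ranked 3rd of 22. At equal reads per nucleosome the difference was 0.258 ± 0.0495 bp. At equal reads and equal GC content of the wrapped DNA it was 0.054 ± 0.0943 bp (SD, n = 4), with values from -0.036 to 0.153 bp. The mean distance between neighbouring dyads, taken over distances of 100 to 300 bp, was 207.5 ± 0.669 bp against 208.1 ± 0.647 bp (SD, n = 4). That is a difference of -0.521 ± 0.0441 bp, with chromosome 7 at rank 15 of 22. The sign depended on the longest distance admitted, since it was 0.024 ± 0.0362 bp (SD, n = 4) for distances from 147 to 220 bp. Chromosome 14, close to chromosome 7 in level and GC content, had a fuzziness of 35.8 ± 0.890 bp and a spacing of 207.6 ± 0.662 bp (SD, n = 4). These spreads hold the gap between replicates 1 and 2. Library by library, fuzziness was 35.03, 36.59, 35.07 and 36.61 bp on chromosome 7 and 35.03, 36.58, 35.05 and 36.58 bp on chromosome 14. Spacing was slightly shorter on chromosome 7 in each library, with 208.18, 206.94, 208.06 and 206.98 bp against 208.25, 207.01, 208.13 and 207.08 bp.

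The level varied less along the chromosome once base composition was taken into account. The short arm 7p (577 bins) had a level of 1.225 ± 0.0067 and the long arm 7q (963 bins) 1.185 ± 0.0043 (SD, n = 4). After the GC curve the arms were at 1.247 ± 0.0030 and 1.240 ± 0.0062 (SD, n = 4). In 5-Mb blocks the level went from 1.026 ± 0.0216 between 115000001 and 120000000 to 1.465 ± 0.0466 in the first 5 Mb, which had the highest GC content of any block at 51.5%. After the GC curve the blocks lay between 1.112 ± 0.0165, from 155000001 to the end of the chromosome, and 1.318 ± 0.0171 from 80000001 to 85000000 (SD, n = 4). A slope with GC content was left in the opposite direction, from 1.299 ± 0.0086 in bins under 36% GC to 1.126 ± 0.0219 at 48% and over (SD, n = 4). With the curve fitted within chromosomes the blocks lay between 1.161 ± 0.0425, beside the centromere gap from 60000001 to 65000000, and 1.295 ± 0.0033 from 15000001 to 20000000 (SD, n = 4). In neither fit did the mean of a block fall to the median autosomal bin. Of the 1540 bins of 100 kb, between 98.8% and 99.5% in each library were above that median after the GC curve.

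One stretch of 7q stood apart. It was the single run of adjacent 100-kb bins below 0.67 times the chromosome 7 median in all 4 libraries, 3 bins from 87500001 to 87800000, and no run lay above 1.5 times it. It was chosen by its reads, which are therefore described without a test. In 1-kb bins the reads dropped and rose again in sharp steps. The best-fitting steps were at 87496001 and 87755000 in control replicate 1, 87497001 and 87754000 in control replicate 2, 87498001 and 87755000 in MYCN knockdown replicate 1 and 87496001 and 87754000 in MYCN knockdown replicate 2. The 258 kb between the steps of the pooled libraries had levels of 0.435 and 0.516 in the controls and 0.434 and 0.534 upon MYCN knockdown. The 500 kb on each side had levels from 1.089 to 1.115, at 36.9% GC against 37.98% inside. The level inside was 0.437 ± 0.0490 times that of the flanks (SD, n = 4). Fewer DNA copies and poorer recovery of this DNA cannot be told apart from these lists. Nucleosomes with fewer than 6 reads are not listed, and inside the segment 39.5% of nucleosomes in control replicate 1 held 6 or 7 reads, against 10.9% in its flanks.

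**Figure D2:**
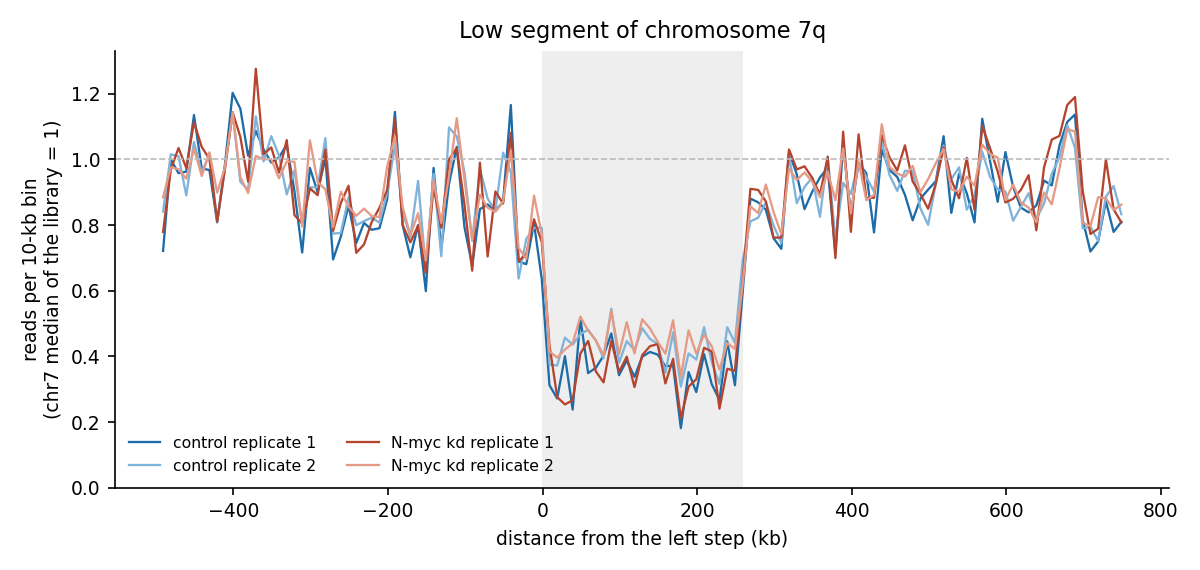
Reads per 10-kb bin in each of 4 libraries, with the library's chromosome 7 median set to 1, against distance in kb from the left step of the low segment. The grey area is the 258-kb segment, where all 4 libraries drop together, and both flanks lie near 0.9.

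The segment overlaps 3 protein-coding genes. DBF4 (87505531 to 87538868, plus strand), the activating subunit of the CDC7 kinase of replication origins, lies wholly inside. SLC25A40 (87462883 to 87505675, minus strand), a mitochondrial carrier, has 22.6% of its length inside, with its start. ADAM22 (87563458 to 87832204, plus strand), a synaptic membrane protein without protease activity, has 70.9% inside, again with its start. Their promoters, which span the 2 kb before and the 1 kb after the transcription start site (TSS), held the fewest reads of all 933 chromosome 7 promoters. For SLC25A40 the promoter reads were 54 and 87 in control libraries and 70 and 100 after knockdown of MYCN. For DBF4 they were 63 and 104 against 68 and 98, and for ADAM22 72 and 135 against 70 and 116. The SLC25A40 and DBF4 windows overlap, since both genes start within the same short stretch on opposite strands, and they share reads.

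Inside the segment nucleosomes were fewer, held fewer reads and were less fuzzy than in the flanks. Nucleosome density inside was 0.734 ± 0.130 times and mean reads per nucleosome 0.600 ± 0.0403 times that of the flanks (SD, n = 4). In control replicate 1 there were 2473 nucleosomes per Mb inside and 3965 per Mb in the flanks, and in the deeper control replicate 2 there were 3647 and 4397. Fuzziness was lower inside, with a difference of -1.87 ± 0.140 bp (inside minus flanks, SD, n = 4). Against chromosome 7 nucleosomes outside the segment with the same number of reads, the difference was -1.52 ± 0.173 bp (SD, n = 4), with values from -1.69 to -1.31 bp. This match does not remove the choice of the segment by its low reads, since equal reads rank differently inside and outside. In control replicate 1 the median was 8 reads per nucleosome inside and 13 in the flanks. The part of that choice in the fuzziness difference was not tested. Neighbouring dyads were on average 4.67 ± 2.53 bp farther apart inside (SD, n = 4). The values were 6.85 and 1.41 bp in the controls and 6.46 and 3.95 bp upon MYCN knockdown, larger in the shallower replicates 1. The part of nucleosomes missing from the lists in these distances was not tested. The chromosome as a whole had shown the opposite signs against other autosomes, with more reads, higher fuzziness and shorter distances. Its signs in fuzziness and distance did not hold in every setting. For distances up to 220 bp the spacing difference was 0.024 ± 0.0362 bp (SD, n = 4). At equal reads and GC content the fuzziness difference ranged from -0.036 to 0.153 bp between libraries. Chromosome 7 and the segment were both chosen on their reads, and the part of that choice in these signs was not tested.

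Smaller departures were found at 10 kb, where 26 of 15524 bins lay below 0.5 times the chromosome 7 median in all 4 libraries. Of these, 20 belonged to the low segment. The lowest lay at 115930001 to 115940000 in CAV2, a caveolin gene, with 0.188 and 0.137 in the controls and 0.150 and 0.166 upon MYCN knockdown. At the other end, 8 bins exceeded 3 times the median in all 4 libraries. Neighbouring bins from 56430001 to 56450000 reached 7.32, 6.18, 7.37 and 6.03 in the higher of them, without a protein-coding gene. The bin from 152100001 to 152110000 in KMT2C, a histone methyltransferase gene, reached 5.42, 6.09, 5.52 and 6.75, and that from 100640001 to 100650000 in MUC12 reached 3.60, 3.26, 3.50 and 3.23. These 10-kb bins were picked after their values were seen. Reads that map to near-identical copies could have been placed here, so the values of KMT2C and MUC12 are uncertain.

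Around the dyads of chromosome 7 the base composition changed sharply. GC content averaged 43.3 ± 0.527% within 50 bp of the dyad and 37.6 ± 0.222% at 90 to 110 bp from it (SD, n = 4 libraries), a difference of 5.71 ± 0.746 percentage points. Among nucleosomes with at least the median reads, the 10% with the lowest fuzziness had 50.8 ± 0.472% in the core and 37.3 ± 0.819% at 90 to 110 bp. The 10% with the highest fuzziness had 47.0 ± 0.309% and 42.5 ± 0.443%. The difference between core and linker was thus 13.6 ± 1.29 points in the sharp and 4.48 ± 0.157 points in the fuzzy nucleosomes (SD, n = 4), and the libraries of the 2 sets did not overlap. MNase itself cuts preferentially at A and T, and its part in this profile was not tested.

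**Figure D3:**
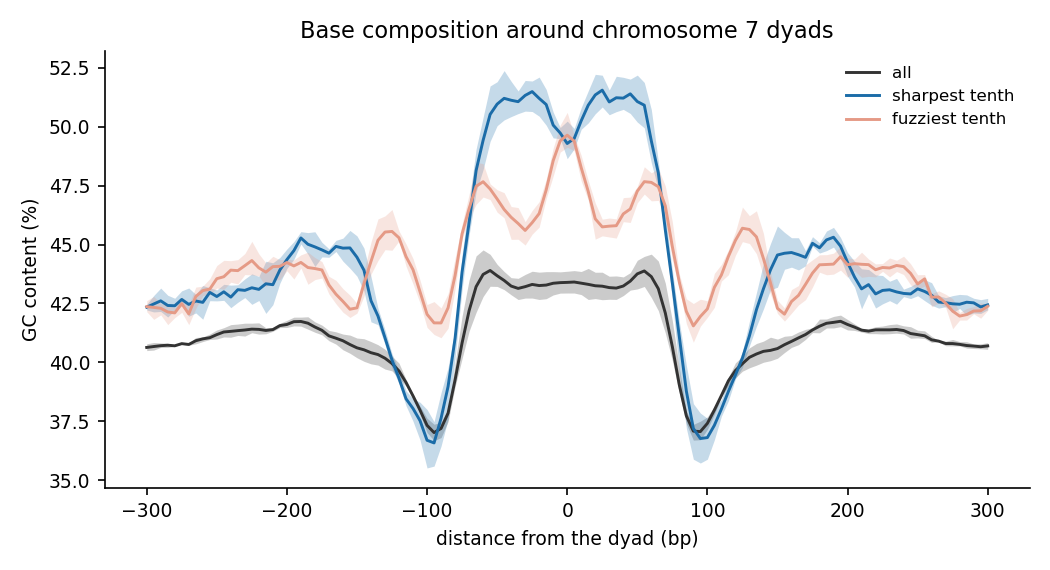
GC content in percent against distance from the dyad in bp for all chromosome 7 nucleosomes and for the 10% with the lowest and the 10% with the highest fuzziness among those with at least the median reads. Lines are means and bands the range of 4 libraries; the sharp set rises to 50.8% in the core and falls to 37.3% in the linker.

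Reads differed between the parts of chromosome 7 genes. Exons of protein-coding genes held 1.150 ± 0.0319 times the chromosome 7 mean of reads per base, introns 0.990 ± 0.0028 times and sequence between genes 1.003 ± 0.0017 times (SD, n = 4). Exons had 47.4% GC, introns 40.8% and sequence between genes 40.4%, and read level rose with GC content, whose part in the exon value was not tested. Windows spanning the 200 bp before and the 50 bp after the TSS, where the nucleosome-free region (NFR) of active promoters lies, held 0.729 ± 0.0396 times although their GC content was 63.6%. Averaged over the 933 promoters, reads fell to between 0.456 and 0.542 times the flanks near the TSS. They rose to 2.11 and 1.97 times the flanks in the controls and 2.18 and 1.98 times upon MYCN knockdown at the +1 nucleosome. That peak lay 125 bp downstream of the TSS in 3 libraries and 135 bp in control replicate 2. The other autosomes had the peak at 125 bp in 4 of 4 libraries, with 1.98 to 2.11 times the flanks.

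**Figure D4:**
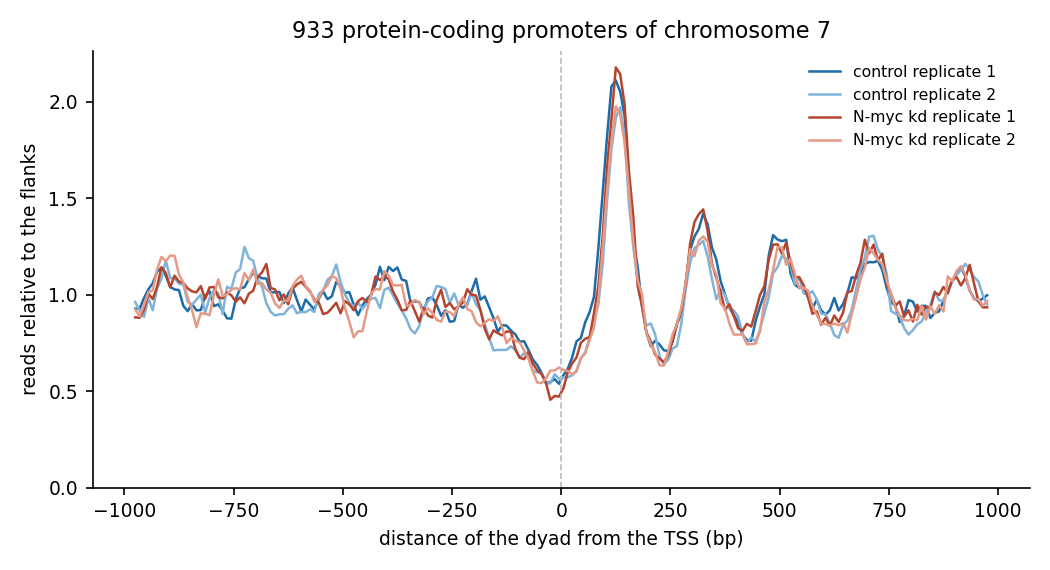
Reads by distance of the dyad from the TSS in bp, relative to the flanks at 800 bp and beyond and averaged over 50 bp, for the 933 protein-coding promoters of chromosome 7 in each of 4 libraries. Each library has its lowest value between -45 and -5 bp and its +1 peak at 125 or 135 bp.

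An NFR was counted when no nucleosome had at least 80% of its length in the window. Among the 933 chromosome 7 promoters, 52.3% and 48.8% had an NFR in the controls and 55.5% and 46.1% upon MYCN knockdown. In all 4 libraries 269 promoters (28.8%) had one, against 32.5% on the other autosomes, and 236 (25.3%) had a nucleosome in all 4, against 19.9%. Chromosome 7 also had the higher median number of reads per promoter, 198 against 164 in control replicate 1, and a nucleosome passes the minimum of 6 reads more easily where reads are more. Its part in the difference was not tested.

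The 5 gene lists are given by their counts, without a test between lists. Of all chromosome 7 promoters, 28.8% had an NFR in all 4 libraries and 25.3% a nucleosome in all 4. Of 28 growth and housekeeping genes, 17 (60.7%) had an NFR in all 4 libraries, among them ACTB (cytoplasmic actin), HNRNPA2B1 (an RNA-binding protein), SBDS (ribosome maturation) and EIF4H (translation initiation), and 1, EIF3B, had a nucleosome in all 4. Of 14 cell cycle and DNA repair genes, 6 (42.9%) had an NFR in all 4, namely CDK5, MCM7 (a subunit of the replicative helicase), PMS2 (mismatch repair), POLM (DNA polymerase mu), POLD2 (a subunit of DNA polymerase delta) and RFC2 (clamp loading). Of 16 chromatin regulators, 6 (37.5%) had one, including KMT2C and BAZ1B. Of 14 receptor and signalling genes it was 3 (21.4%), EPHA1, RHEB and HIPK2, and 5 had a nucleosome in all 4, including MET, the receptor of hepatocyte growth factor, and RAC1, a small GTPase. Of 32 neural crest and neuronal genes, 4 (12.5%) had one, DLX6, PTPRN2, STX1A and ACHE. Another 8 (25%) had a nucleosome in all 4, including GLI3, EN2, CNTNAP2 and MAGI2, a share close to that of all chromosome 7 promoters.

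Promoter reads were compared between groups with edgeR's quasi-likelihood test over 19227 autosomal promoters. No chromosome 7 promoter passed a Benjamini-Hochberg adjusted p of 0.05 (0 of 933, smallest adjusted p 0.9994), and the background share called over all autosomes was 0%. At an unadjusted p under 0.05 there were 32 chromosome 7 promoters (3.43%), against 3.22% over all autosomes. DESeq2 also called 0, and at an unadjusted p under 0.05 it had 14 of 933, against 207 of 19227 over all autosomes. The median log2 change, MYCN knockdown minus control, was 0.00 on chromosome 7 and the median size of the change was 0.09, against 0.10 on the other autosomes. For the values below, reads were scaled to the mean autosomal total of the libraries. The groups did not overlap in these scaled reads at 301 of 933 promoters (32.3%), against 31.2% over all autosomes.

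Receptor and signalling genes (14 measured) had a median log2 change of -0.01, with 0 called and 4 without overlap of the groups. EGFR (55086710 to 55279321), the epidermal growth factor receptor, held 216 and 313 promoter reads in the controls and 195 and 300 upon MYCN knockdown, a log2 change of -0.06. MET (116312250 to 116438431) held 183 and 288 and then 175 and 302 reads, and BRAF (140419127 to 140624729), a RAF kinase, 151 and 273 and then 178 and 266. The groups overlapped in all of these. BRAF had the fewest scaled reads of the list, 217 ± 14.8, and SMO, the transducer of Hedgehog signals, the most, 314 ± 18.4 (SD, n = 4). The largest rise was 0.19 at EPHB4 and the largest fall -0.23 at EPHA1, both Eph receptors (edgeR unadjusted p 0.179 and 0.127).

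Cell cycle and DNA repair genes (14 measured) had a median log2 change of -0.05, with 0 called and 5 without overlap. CDK6 (92234235 to 92465887) had the largest rise of the list, from 123 and 207 reads in the controls to 151 and 247 upon MYCN knockdown. Scaled reads were 164 ± 3.23 and 200 ± 1.51 (SD, n = 2 each), a log2 change of 0.31 with an edgeR unadjusted p of 0.0501 and an adjusted p of 0.9994. ORC5, a subunit of the origin recognition complex, had the largest fall, -0.23 (unadjusted p 0.101 in edgeR), from 202 and 319 reads to 164 and 268. MAD1L1, a spindle checkpoint gene, had the most scaled reads of the list, 318 ± 27.5 (SD, n = 4), and DBF4 in the low segment the fewest, 83.8 ± 4.11 (SD, n = 4).

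Chromatin regulators (16 measured) had a median log2 change of 0.04, with 0 called and 2 without overlap. EZH2 (148504349 to 148581413) held 165 and 267 reads in control libraries, against 134 and 331 upon MYCN knockdown, so that the knockdown libraries lay on both sides of the controls after scaling. CBX3, which encodes heterochromatin protein 1 gamma, had the largest rise, 0.23, from 129 and 211 to 150 and 236 reads. Its promoter window is nearly the same as that of HNRNPA2B1 on the opposite strand, with the same reads. The rise cannot be assigned to either gene, and this stretch counts in both lists among those without overlap. PHF14 had the largest fall, -0.15, with overlapping groups. SMARCD3, a subunit of the BAF remodeller, had the most scaled reads (331 ± 32.3) and ING3, a subunit of the NuA4 acetyltransferase, the fewest (156 ± 20.5, SD, n = 4).

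Neural crest and neuronal genes (32 measured) had a median log2 change of 0.04, with 0 called and 6 without overlap. TWIST1 (19060614 to 19157259), a transcription factor of neural crest cells, had the largest rise, 0.22, from 218 and 258 reads to 219 and 331, with overlapping groups. DDC (50526134 to 50633102), which makes dopamine from L-DOPA, had the most scaled reads, 306 ± 43.8 (SD, n = 4), and the largest fall, -0.23, from 276 and 380 reads to 229 and 314 (edgeR unadjusted p 0.107). NPY (24323807 to 24331481), a neuropeptide of sympathetic cells, held 167 and 278 reads in control libraries, against 187 and 253 upon knockdown. HOXA9 (27202057 to 27214799), a member of the HOXA cluster outside the lists, held 285 and 328 and then 230 and 349. Both sets of values overlapped between the groups. DPP6, a subunit of potassium channels, had the fewest scaled reads, 166 ± 15.4 (SD, n = 4).

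Growth and housekeeping genes (28 measured) had a median log2 change of -0.03, with 0 called and 9 without overlap. Among these was HNRNPA2B1, in the window shared with CBX3. ACTB (5566040 to 5603533) held 238 and 211 reads in control libraries, against 162 and 271 upon MYCN knockdown, with 241 ± 101 and 217 ± 5.07 scaled reads (SD, n = 2 each). NAMPT, the rate-limiting enzyme of NAD salvage, had the largest rise of the list, 0.31, from 125 and 241 to 157 and 284 reads, and was the only listed gene with an unadjusted p under 0.05 (0.043 in edgeR, adjusted p 0.9994). AIMP2, a scaffold of the multi-tRNA synthetase complex, had the largest fall, -0.23. POP7, a subunit of RNase P, had the most scaled reads (295 ± 20.4) and SBDS the fewest (154 ± 36.2, SD, n = 4).

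**Figure D5:**
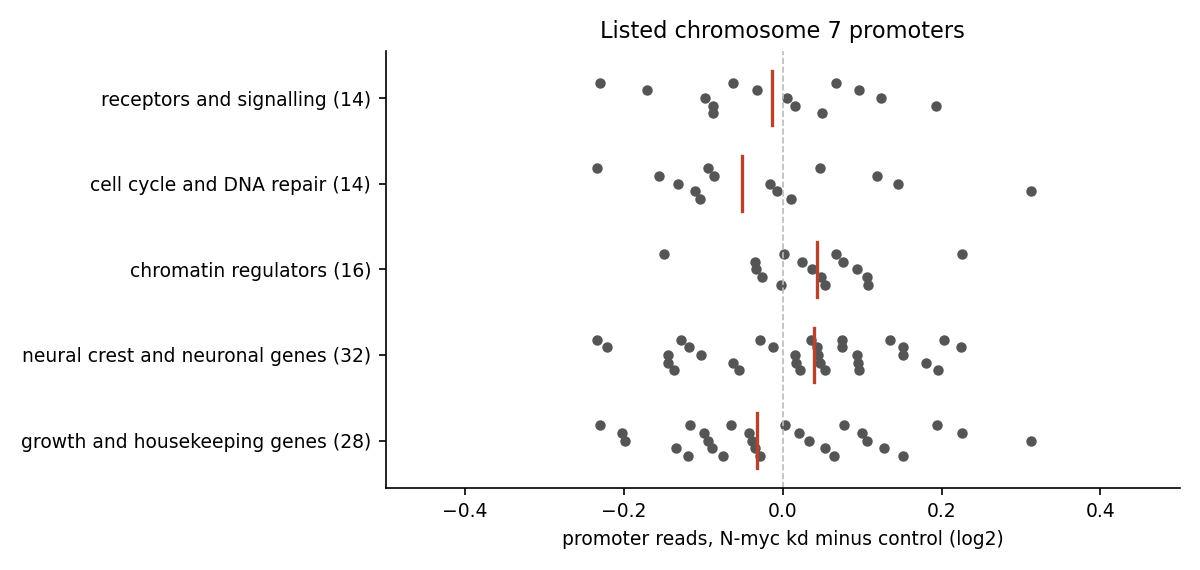
Change of promoter reads, MYCN knockdown minus control, as edgeR log2 change for each listed chromosome 7 gene (points), grouped by list with the number measured in brackets and the list median as a red line. All points lie between -0.23 and 0.31, and the medians lie between -0.05 and 0.04.

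The 5 chromosome 7 promoters with the smallest p are named by that rank and none passed the test (edgeR adjusted p 0.9994 for each). SND1, a nuclease-domain protein of RNA metabolism, held 144 and 220 reads in control libraries, against 203 and 296 upon MYCN knockdown, a log2 change of 0.50 (edgeR unadjusted p 0.00114). VPS50, a tethering factor of endosomal recycling, went from 104 and 199 to 156 and 270 reads, a log2 change of 0.54. MKLN1, a subunit of a ubiquitin ligase complex, had a log2 change of 0.43. GPER1, an estrogen-responsive G protein-coupled receptor, went from 263 and 358 to 177 and 277 reads, a log2 change of -0.43, and PRKAG2, a regulatory subunit of AMP-activated kinase, had -0.38.

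The largest genes gave long stretches in which to compare level. CNTNAP2, a neurexin-family adhesion gene of 2305 kb from 145813094 to 148118090, held 0.882, 0.886, 0.902 and 0.901 times the chromosome 7 mean of reads per kb in control replicates 1 and 2 and MYCN knockdown replicates 1 and 2. MAGI2, a synaptic scaffold gene of 1437 kb, held 0.908 ± 0.0150 times, and DPP6, of 1241 kb, 1.017 ± 0.0199 times (SD, n = 4). No body of these genes thus departed from the chromosome the way the low segment did.

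Whether MYCN knockdown changed chromosome 7 as a whole was tested over the libraries. Chromosome 7 held 6.88% and 6.86% of autosomal reads in the controls and 6.90% and 6.88% upon MYCN knockdown, a difference of 0.0176 percentage points (two-sided exact permutation test, p = 0.667, n = 2 per group). The level after the GC curve was 1.241 ± 0.0010 and 1.246 ± 0.0019 (SD, n = 2 each), and its groups did not overlap, with an exact p of 0.333. That is the smallest p that 2 against 2 libraries can give, so no such comparison could pass 0.05. Fuzziness was 35.03 and 36.59 bp in the controls and 35.07 and 36.61 bp upon knockdown, a difference of 0.029 bp (exact p = 0.667, n = 2 per group). Spacing was 208.2 and 206.9 bp and then 208.1 and 207.0 bp, a difference of -0.043 bp (exact p = 1, n = 2 per group). In both measures the gap between replicates 1 and 2 was far larger than that between the groups.

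At 100 kb no chromosome 7 bin passed the test when replicate number was left out of the model. With replicate number as a block the call differed, as given in the last paragraph. edgeR's quasi-likelihood test called 0 of 1563 chromosome 7 bins (smallest Benjamini-Hochberg adjusted p 0.762), with a background of 0% over 27003 autosomal bins. At an unadjusted p under 0.05 there were 66 (4.22%), against 6.18% over all autosomes. DESeq2 called 0, and at an unadjusted p under 0.05 it had 77 of 1563, against 1934 of 27003 over all autosomes. Of the chromosome 7 bins, 98.3% had a log2 change smaller than 0.1 in size, and the changes ranged from -0.13 to 0.12. The bins with the smallest p were, in order, 85900001 to 86000000 without a protein-coding gene (4472 and 7385 reads in the controls, 4840 and 8000 upon knockdown, log2 change 0.12), 92900001 to 93000000 in VPS50 (0.10), 26700001 to 26800000 in SKAP2 (0.10), 89200001 to 89300000 (0.10) and 5500001 to 5600000 with FBXL18 and ACTB (-0.13). The last went from 8630 and 13937 to 7699 and 12993 reads. Of these bins, the first 4 had GC contents between 33.7% and 35.5% and the last 55.1%.

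At some promoters the nucleosome-free state differed between the groups in both libraries of each. Of all 933 chromosome 7 promoters, 428 had an NFR in some but not all of the 4 libraries, whatever the group. An NFR was found in both controls at 355 chromosome 7 promoters, and 26 of them (7.32%) carried a nucleosome in each MYCN knockdown library, against 5.22% over all autosomes. In the other direction, 352 were nucleosome-free in both knockdown libraries and 24 of them (6.82%) carried a nucleosome in each control, against 5.64% over all autosomes. Whether chromosome 7 differs from the other autosomes in this was not tested. Splits by replicate number were not counted beside these, and whether the switches go beyond the spread between libraries was not tested. Gains of a nucleosome upon knockdown included GARS1, the glycyl-tRNA synthetase, with 6 and 7 reads in the window, and MPLKIP, a gene of trichothiodystrophy, with 15 and 35 reads. Losses included HUS1, a subunit of the 9-1-1 checkpoint clamp, with 21 and 9 reads in the controls, GRM3, a glutamate receptor, with 16 and 24, and the shared window of DBF4 and SLC25A40, with 12 and 10. These genes are examples chosen after their values were seen. Several of the nucleosomes that came or went held few reads above the minimum of 6, as at GARS1, and below that minimum a nucleosome is not listed.

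The share of chromosome 7 nucleosomes without a partner in another library was on average no higher between groups than between replicates. Partners were mutually closest nucleosomes of a pair of libraries that overlapped by at least 30 bp. Between replicates of a group, 13.7% of chromosome 7 nucleosomes had no partner (13.6% to 13.9% over 2 pairs). Between control and MYCN knockdown it was 14.1% for the replicates 1, 11.5% for the replicates 2 and 13.5% and 14.0% for the remaining pairs, a mean of 13.3%. Control against knockdown minus replicate pairs was thus -0.466 percentage points. Replicate pairs join a shallower and a deeper library, whereas same-numbered pairs are close in depth. The pairs of different number, which also join a shallower and a deeper library, minus replicate pairs gave 0.0027 percentage points on chromosome 7 and 0.019 on the other autosomes. On the other autosomes the values were 16.6% between replicates and 15.8% between groups. Between replicates, 1.31% of chromosome 7 nucleosomes had their dyad at the same base and 24.6% within 10 bp, with a median distance of 25 bp between partners. The 6 pairs share libraries and were not tested.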

How the data were processed

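Nucleosomes had been mapped by MNase-seq with paired reads in 4 libraries, 2 of control and 2 of MYCN knockdown, grouped by sample titles. The submitters' processing notes name CASAVA 1.9, Trim Galore 0.4.4 and Bowtie2 2.2.4 with hg19. The authors required proper pairing and a mapping quality over 10, removed duplicates and called nucleosomes with Genetrack. They pooled replicates for their further analysis, whereas the deposited lists are per library. The deposited counts are whole numbers of read midpoints per nucleosome, unscaled, and those under 6 had been left out, so that sums hold only reads in called nucleosomes. The deposited fuzziness values are SDs in bp. The highest count was 1764 in each library.

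Levels were computed in 100-kb bins with at least 90% resolved bases, 1540 on chromosome 7 of 26665 on the autosomes (edgeR bins required a mean of 10 reads instead). The GC curve was a lowess fit (statsmodels 0.14.6). GENCODE on GRCh37 gave 933 protein-coding genes on chromosome 7. edgeR 4.0.16 (quasi-likelihood, TMM, Benjamini-Hochberg) and DESeq2 1.42.0 were run on all autosomal features in R 4.3.3, and the edgeR steps were tested on simulated data. Library-level values were compared by exact permutation. Normalised read counts were scaled to the mean autosomal total. Chromosome 7, the gene lists and the tests were chosen with earlier results of these data known. Named were list members with extreme reads or changes and fixed genes (EGFR, MET, BRAF, CDK6, EZH2, TWIST1, HOXA9, NPY, DDC, CNTNAP2, ACTB), runs of bins, the 5 smallest p, the sharpest nucleosomes, the nearest 2 autosomes and the longest 3 genes. The alternatives were bin width, GC correction, minimum reads, scaling, test, replicate number as a block and leaving out each library. Some items that these rules select are not reported here.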

Additional observations from a re-analysis of the deposited data

How the results depend on the processing

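Of 82 recomputed values over 11 results, 61 kept their direction and stayed within a limit. The limit was the spread of the libraries or, for a tested value, the same side of the threshold. For values tested by exact permutation that side was fixed in advance, since the smallest p was 0.333, so only their direction was compared. The level of chromosome 7 (1.203) was 1.214 in 10-kb bins, 1.243 with the GC curve, 1.251 with the curve fitted within chromosomes, 1.248 against bins of the same GC class and 1.312 with a minimum of 12 reads, where the curve within chromosomes and the GC classes were chosen after seeing the data. With that minimum the ratio of nucleosomes per Mb was 1.253 and that of mean reads 1.052, since nucleosomes with few reads are then left out. The fuzziness difference (0.459 bp) was 0.258 bp at equal reads, 0.054 bp at equal reads and GC content and 0.37 bp between medians. The spacing difference (-0.521 bp) was -0.883 bp at equal reads, -0.578 bp in bins of the same GC class, -2.449 bp for distances up to 400 bp and reversed to 0.024 bp for distances up to 220 bp. The cause was not tested.

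Leaving out each library gave levels from 1.201 to 1.205, ratios from 1.05 to 1.069 and from 1.126 to 1.147, and differences from 0.4465 to 0.4704 bp and from -0.5356 to -0.5015 bp. The knockdown difference went from 0.00784 to 0.0274 percentage points in read share, from -0.752 to 0.809 bp in fuzziness and from -0.661 to 0.574 bp in spacing, so that the sign of the last 2 turned with the library left out. The number of changed 100-kb bins was 0 or 1. The 1 bin was called without control replicate 1, where the remaining control is assumed to vary like the other group. Changed promoters stayed at 0 in every setting run.

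The deviations from the group means correlated between libraries of the same number at 0.832 over 100-kb bins and 0.267 over promoters. Libraries of the same number were also alike in depth, fuzziness and spacing. There are only 2 pairs, and no label ties a number to a shared culture or day. What lies behind the correlation was not tested. A replicate block in edgeR called 297 of 1563 chromosome 7 bins (95 up), against 5472 of 27003 over all autosomes. When the GC curve of each library was added as an offset, it called 15 of 1563 (13 up), against 251 of 27003. The block called 0 promoters. The differences within numbers 1 and 2 were 0.0162 and 0.0189 points in read share, 0.0384 and 0.0189 bp in fuzziness and -0.122 and 0.0356 bp in spacing. For nucleosomes without a partner, same-numbered pairs minus replicate pairs gave -0.934 points and pairs of different number 0.0027 points. A minimum of 6 reads and unequal depth limit what absence from a list can show.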
